A study of Arabidopsis thaliana with 12 samples.

Results

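The chloroplast of Arabidopsis carries its own small genome, and the genes described here are those of that genome that encode photosynthesis proteins. A probe set was taken where the annotation paired it with a single plastid gene whose symbol names a subunit of photosystem II (*psb*), photosystem I (*psa*), the cytochrome b6f complex (*pet*), the NDH complex (*ndh*) or the ATP synthase (*atpA*, *atpB*, *atpE*, *atpF*, *atpH*, *atpI*), or is *rbcL*. This gave 43 genes, with 1 probe set each, of 22746 probe sets tested. They comprised 15 genes of photosystem II, 6 of cytochrome b6f, 5 of photosystem I, 6 of ATP synthase, 10 of the NDH complex and 1 of Rubisco. The plastid genome holds *ndhB* in a duplicated region, and its 1 probe set was paired with both copies, so it was not among the 43 genes.

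Transcripts were measured with ATH1 GeneChips in whole 9-day-old seedlings of the Columbia strain. The 4 groups, each with 3 independent biological replicates, were the *PtSnRK2.7* overexpressor (spelled PrSnRK2.7 in the sample titles) with 200 mM NaCl, the overexpressor with mock treatment, the wild-type with 200 mM NaCl, and the wild-type with mock treatment. All seedlings grew on 1/2 MS medium in long days at a constant temperature, were moved at 7 days to fresh plates with or without NaCl, and stayed there for 2 days. The overexpressor (genotype 35S:PtSnRK2.7:NOS) was the single T2 line 20, in which the 35S promoter of cauliflower mosaic virus drives a poplar protein kinase gene throughout the plant, and its control was the untransformed wild-type, so line and transgene cannot be told apart. The ATH1 array was designed on Arabidopsis genes, and the poplar transgene itself was not measured here.

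Photosystem II splits water and passes electrons through cytochrome b6f to photosystem I, the ATP synthase uses the resulting proton gradient, and the NDH complex returns electrons from ferredoxin to the plastoquinone pool. Each of these complexes combines subunits made in the chloroplast with subunits imported after synthesis from nuclear genes. Plastid genes sit on a genome present in many copies per cell and are transcribed, largely in clusters of several genes, by a plastid-encoded RNA polymerase and a nuclear-encoded one. Plastid RNA mostly lacks long poly(A) tails, and short tails mark it for decay. The standard Affymetrix labelling starts from poly(A), so a signal reports RNA that was labelled and is not a direct reading of transcription.

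Values are MAS5 signals on a linear scale. Log2 differences are between the group means of log2 signals, with their standard errors (SE), and fold changes are taken from these differences. Adjusted p are limma values with Benjamini-Hochberg adjustment over all 22746 probe sets, and genes whose adjusted p is below 0.05 are called higher or lower. The arrays had been scaled to a common target, with trimmed means between 500.04 and 500.05. The median signal of an array lay between 169.4 and 194.2. Of the 43 genes, 34 lay above this median on all 12 arrays, *petD* and *ndhF* lay above it on 0 arrays, and 42 lay above the 20th percentile on all 12 arrays. With 3 arrays a group, the number of arrays is what limits precision. In whole seedlings, fewer green cells and less RNA per cell cannot be told apart. The labelled tissue could be checked only in part. None of 9 shoot and 4 vascular marker genes had a probe set paired with it alone, 1 of 5 epidermis and guard cell markers was measured (*FAMA*, not called in either genotype), and 3 of 10 root markers were measured and lay above the array median on all 12 arrays.

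By limma, most plastid photosynthesis transcripts were lower after salt in both genotypes. In the overexpressor, 34 of the 43 genes (79.1%) were lower after salt, where 24% of all probe sets were lower, and 1 gene, *petG*, was higher, where 17.1% of all probe sets were higher. In the wild-type, 27 genes (62.8%) were lower, where 21.9% of all probe sets were lower, and 0 were higher, where 17.2% of all probe sets were higher. The calls of the wild-type rest on limma. The methods' t-test, the kind of test the study used, was rerun here on the deposited signals with the same adjustment. In the overexpressor it gave 20 genes lower, where it called 15.6% of all probe sets lower. In the wild-type it gave 0, where it called 0% of them lower. The paper, with its own processing, reported genes raised and lowered by salt in the wild-type, so the rerun does not reproduce its counts. At an unadjusted p under 0.05 the rerun gave 31 genes lower in the overexpressor and 13 in the wild-type, and limma gave 35 and 31. Counting both directions, limma gave 36 and 31 of the 43 genes at this level, against 10904 and 10582 of all 22746 probe sets. The median log2 difference of the 43 genes was -0.99 in the overexpressor, which is 50.3% of the mock level, and -0.75 in the wild-type, which is 59.4% of it. Over all probe sets the medians were -0.09 in the overexpressor and -0.07 in the wild-type. Falls that were called ranged from 1.52- to 3.74-fold in the overexpressor and from 1.44- to 3.88-fold in the wild-type, so the changes were broad and mostly moderate. The study's own limits for salt were stricter, with more than a 3-fold change at an adjusted p below 0.01. They left 7 genes lower in the overexpressor (5.35% of all probe sets) and 2 in the wild-type (3.99%), and 0 higher in either genotype (4.88% of all probe sets in the overexpressor and 4.62% in the wild-type).

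**Figure D1:**
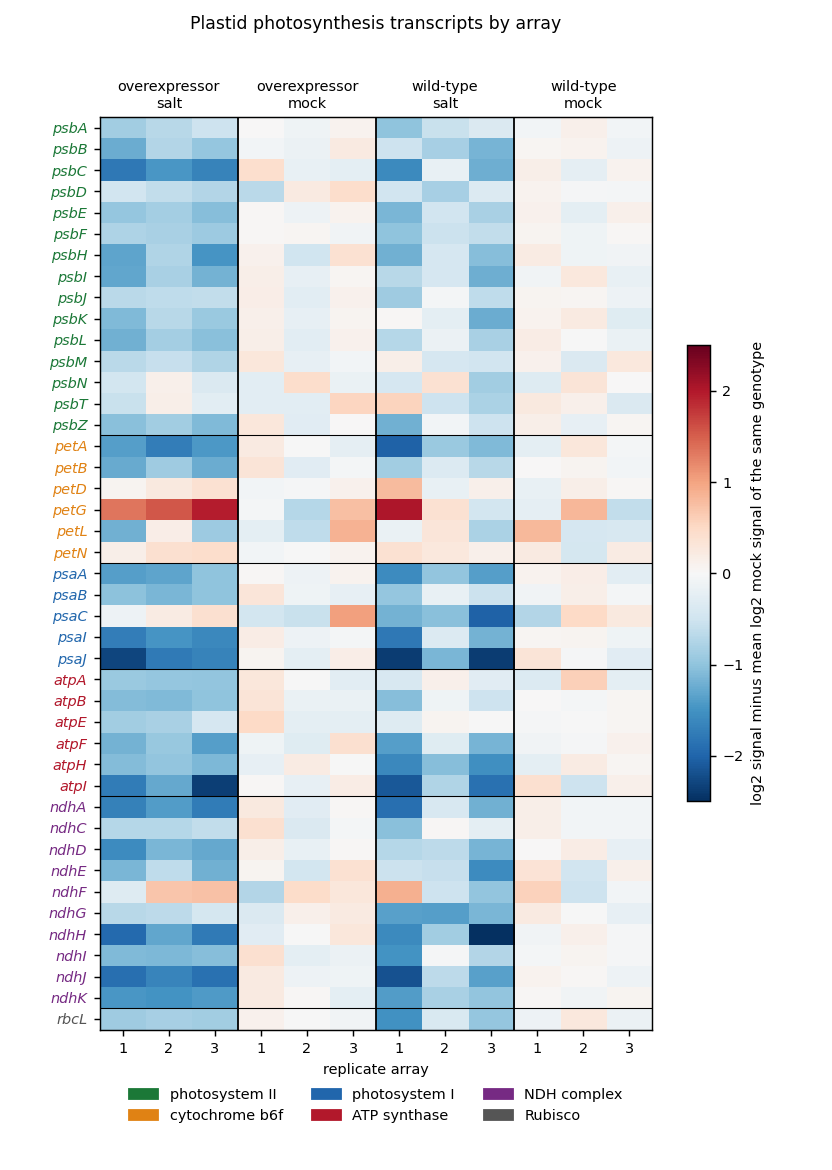
Colour shows the log2 signal of each of the 43 genes on each of the 12 arrays minus the mean log2 mock signal of the same genotype, with genes in rows grouped by complex and arrays in columns grouped by genotype and treatment. Blue fills most salt columns of both genotypes, with the palest salt column in wild-type replicate 2, while *petG*, *petN* and *petD* are red in the 3 salt columns of the overexpressor.

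All 3 salt arrays lay below all 3 mock arrays for 34 genes in the overexpressor, where 31.7% of all probe sets did so, and for 26 genes in the wild-type, where 26.8% did so. They lay above all mock arrays for 2 genes in the overexpressor, *petG* and *petN* (23.3% of all probe sets), and for 0 genes in the wild-type (21.1% of all probe sets). The median of the 43 genes stood at 47.5%, 55.9% and 49.6% of the mock level on the 3 salt arrays of the overexpressor. On the 3 salt arrays of the wild-type it stood at 49.7%, 75.2% and 51.3%. Wild-type salt replicate 2 thus lay apart from the other two wild-type salt arrays, and it held the highest wild-type salt signal for 31 of the 43 genes. The other probe sets called lower in the salt-treated overexpressor had median log2 shifts of -1.08, -0.53 and -0.93 on wild-type salt arrays 1 to 3. Replicate 2 thus lay apart for them as well. Their shifts of -1.05, -0.97 and -1.06 on the overexpressor salt arrays follow from how they were chosen. The spread between replicates of the 43 genes had a median SD on the log2 scale of 0.18 in salt-treated and 0.27 in mock-treated overexpressor seedlings, and of 0.50 in salt-treated and 0.19 in mock-treated wild-type seedlings. Without wild-type salt replicate 2, 32 genes were lower in the wild-type, with a median of -0.85.

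Of 3 degradation controls on the array, 1 moved with the treatment. The ratio of the 3′ to the 5′ probe set of a ubiquitin gene was 2.64 to 3.06 in salt-treated against 3.70 to 4.40 in mock-treated overexpressor seedlings, and 2.86 to 3.53 in salt-treated against 3.97 to 4.07 in mock-treated wild-type seedlings. The same ratio for GAPDH overlapped between salt and mock in each genotype, within 2.29 to 3.41 over all arrays. The actin ratio overlapped as well, at 24.5 to 28.0 in salt-treated and 20.6 to 27.1 in mock-treated overexpressor seedlings, and 27.2 to 34.6 in salt-treated and 23.4 to 37.3 in mock-treated wild-type seedlings. The summed signal of the 3 measured root markers (*PYK10*, *EXPA7* and *ATHRGP1*) was 12645 to 14148 in salt-treated and 15354 to 18315 in mock-treated overexpressor seedlings, and 14457 to 20383 in salt-treated and 15719 to 18403 in mock-treated wild-type seedlings. Most of this sum was *PYK10*, which was not called in either genotype (log2 differences -0.29 and -0.02, adjusted p = 0.17 and 0.94). *ATHRGP1* was lower after salt in the overexpressor (-1.28, adjusted p = 0.0029; wild-type -0.56, adjusted p = 0.14), and after salt it was lower in the overexpressor than in the wild-type (-1.28, adjusted p = 0.039). *EXPA7* was not called (-0.09 and 0.37, adjusted p = 0.78 and 0.2). The part of RNA quality and of tissue make-up in the results was not tested.

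**Figure D2:**
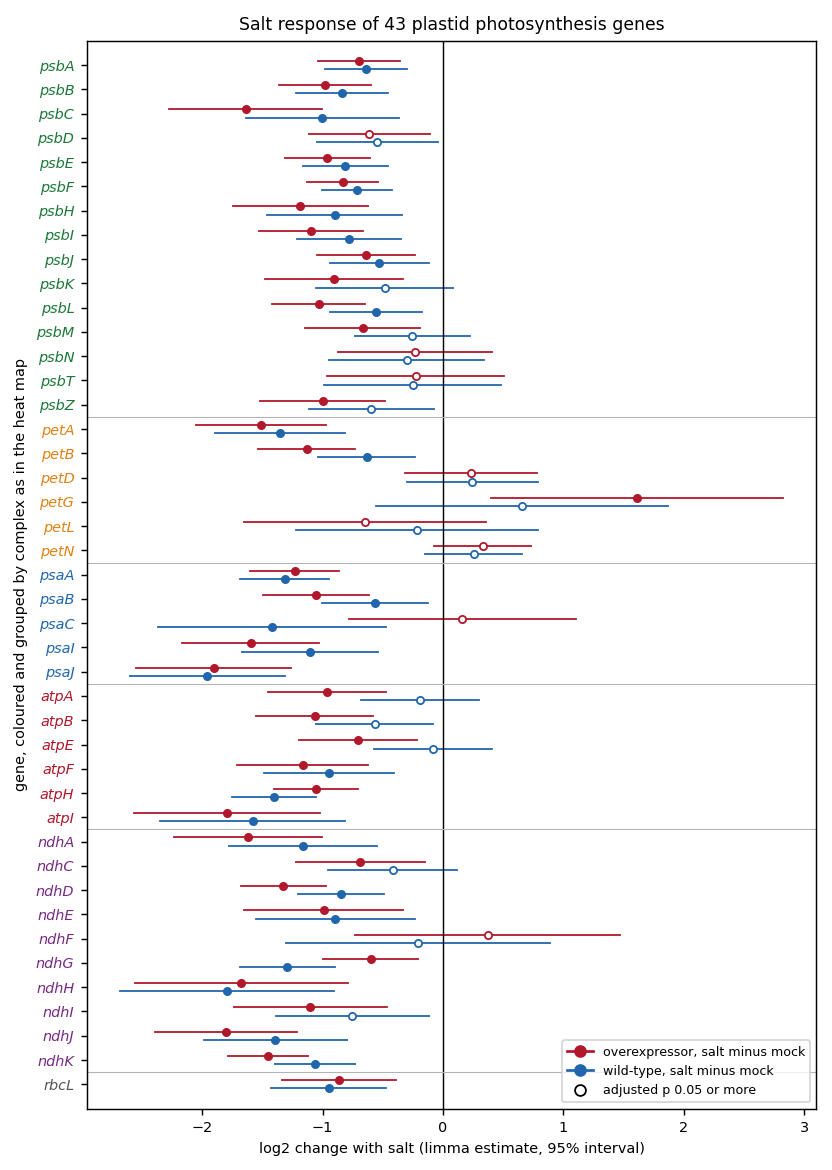
Points show the limma estimate of the log2 change with salt for each of the 43 genes in the overexpressor (red) and the wild-type (blue), with 95% intervals as lines, and open points mark an adjusted p of 0.05 or more. Most points of both genotypes lie between 0 and -2, and *petG* in the overexpressor is the only filled point to the right of 0.

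Photosystem II had 12 of 15 genes lower in the overexpressor and 9 of 15 in the wild-type, with median log2 differences of -0.90 and -0.59. The gene *psbA* encodes the reaction centre protein D1, which is damaged by light and continually replaced. Its signals were 2146, 2417 and 2751 in salt-treated overexpressor seedlings, against 3982, 3649.8 and 4179 in mock-treated overexpressor seedlings (log2 difference -0.70, SE 0.16, adjusted p = 0.0032). In wild-type seedlings they were 1967, 2688 and 3091 after salt, against 3800.5, 4299.8 and 3798 after mock treatment (log2 difference -0.64, SE 0.16, adjusted p = 0.0058). Salt and mock arrays did not overlap in either genotype, and *psbA* was 1.62-fold lower in the overexpressor and 1.56-fold lower in the wild-type. Its partner in the reaction centre, the D2 protein gene *psbD*, had signals of 467, 421 and 389 in salt-treated overexpressor seedlings, against 409, 754 and 884 in mock-treated overexpressor seedlings, with the first mock array as low as the salt arrays (log2 difference -0.61, SE 0.23, adjusted p = 0.051). Its wild-type signals were 470.5, 367 and 515 after salt, against 695, 635 and 627 after mock treatment, which did not overlap but missed the threshold as well (log2 difference -0.55, SE 0.23, adjusted p = 0.081).

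The core antenna protein genes fell in both genotypes. For *psbC*, which encodes CP43, signals were 1624, 2052 and 1774 in salt-treated overexpressor seedlings, against 7572, 4939 and 4752 in mock-treated overexpressor seedlings. This was the largest change in photosystem II, 3.11-fold lower in the overexpressor (log2 difference -1.64, SE 0.29, adjusted p = 6.9e-04). In wild-type seedlings *psbC* had 1455, 3845 and 1870.5 after salt, against 4835, 3762 and 4630.4 after mock treatment, where replicate 2 after salt lay within the mock range (log2 difference -1.0, SE 0.29, adjusted p = 0.016). For *psbB*, which encodes CP47, the mean signal was 339 ± 59.6 in salt-treated against 667 ± 92.6 in mock-treated overexpressor seedlings, and 416 ± 92.5 in salt-treated against 732 ± 53.1 in mock-treated wild-type seedlings (SD, n = 3). The log2 differences of *psbB* were -0.98 and -0.84. The subunits of cytochrome b559, encoded by *psbE* and *psbF*, gave differences of -0.96 and -0.83 in the overexpressor and -0.81 and -0.71 in the wild-type.

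Among the small subunits, *psbH*, *psbI*, *psbJ* and *psbL* were lower in both genotypes, with log2 differences of -1.19, -1.09, -0.64 and -1.03 in the overexpressor and -0.90, -0.78, -0.53 and -0.56 in the wild-type. The small subunit genes called in the overexpressor alone were *psbK* (-0.90 and -0.48), *psbM* (-0.67 and -0.25) and *psbZ* (-1.0 and -0.59), with adjusted p of 0.17, 0.41 and 0.067 in the wild-type. The small subunit gene *psbT* passed in neither genotype (-0.22, adjusted p = 0.65, and -0.25, adjusted p = 0.61). The same held for *psbN*, whose product is an assembly factor of photosystem II in tobacco rather than a subunit. Its signals were 434, 647 and 462 in salt-treated overexpressor seedlings, against 494, 803 and 527 in mock-treated overexpressor seedlings (log2 difference -0.23, SE 0.30, adjusted p = 0.59), and in wild-type seedlings 479, 833 and 349 after salt, against 509.6, 797 and 643 after mock treatment (log2 difference -0.30, SE 0.30, adjusted p = 0.46). Replicate 2 was the highest of its group for *psbN* in all 4 groups, and salt and mock arrays overlapped throughout.

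Cytochrome b6f had 2 of 6 genes (33.3%) lower in each genotype, *petA* and *petB*. This share was near that of all probe sets, 24% in the overexpressor and 21.9% in the wild-type. The complex had median log2 differences of -0.21 in the overexpressor and 0.01 in the wild-type. The cytochrome f gene *petA* had signals of 3394, 2653 and 3229 in salt-treated overexpressor seedlings, against 10206, 8749.9 and 7556 in mock-treated overexpressor seedlings (log2 difference -1.51, SE 0.25, adjusted p = 3.8e-04). In the wild-type it had 2236, 4781 and 4216 after salt, against 7687, 11075 and 8791 after mock treatment (log2 difference -1.35, SE 0.25, adjusted p = 9.7e-04). The arrays did not overlap, and the fall was 2.85-fold in the overexpressor and 2.55-fold in the wild-type. The cytochrome b6 gene *petB* had a mean of 5498 ± 841 in salt-treated against 12152 ± 2653 in mock-treated overexpressor seedlings (log2 difference -1.13, SE 0.19, adjusted p = 3.6e-04) and of 6987 ± 1363 in salt-treated against 10719.6 ± 506 in mock-treated wild-type seedlings (log2 difference -0.63, SE 0.19, adjusted p = 0.016).

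None of the other four *pet* genes passed the test for a fall. The gene *petG*, for a small subunit, was the only one of the 43 that was higher. Its signals were 278, 324 and 432 in salt-treated overexpressor seedlings, against 107, 67.9 and 186 in mock-treated overexpressor seedlings, so that all salt arrays lay above all mock arrays with a 3.06-fold difference (log2 difference 1.61, SE 0.56, adjusted p = 0.034). In the wild-type its signals were 739.8, 237 and 133 after salt, against 154, 324 and 119 after mock treatment, with 1 high salt array and overlap of the groups (log2 difference 0.66, SE 0.56, adjusted p = 0.4). The call in the overexpressor was lost without overexpressor salt replicate 1, 2 or 3 (adjusted p = 0.055, 0.070 and 0.11) and without overexpressor mock replicate 1 or 2 (adjusted p = 0.082 and 0.13). The subunit IV gene *petD*, whose signals stayed under the array median on every array, differed by 0.23 (SE 0.25, adjusted p = 0.51) in the overexpressor and 0.24 (SE 0.25, adjusted p = 0.49) in the wild-type. The small subunit genes *petN* and *petL* differed by 0.33 (SE 0.19, adjusted p = 0.19) and -0.65 (SE 0.46, adjusted p = 0.3) in the overexpressor and by 0.25 (SE 0.19, adjusted p = 0.32) and -0.22 (SE 0.46, adjusted p = 0.75) in the wild-type. For *petL*, replicates within a group differed by more than the groups, with 304, 793 and 374 in salt-treated and 595, 455 and 1287 in mock-treated overexpressor seedlings.

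Photosystem I had 4 of 5 genes lower in the overexpressor and 5 of 5 in the wild-type, with median log2 differences of -1.23 and -1.31. The reaction centre is a pair of large proteins encoded by *psaA* and *psaB*. For *psaA*, signals were 249, 259 and 319.7 in salt-treated overexpressor seedlings, against 659, 588 and 689 in mock-treated overexpressor seedlings (log2 difference -1.23, SE 0.17, adjusted p = 1.1e-04). Wild-type signals of *psaA* were 271, 411 and 310.5 after salt, against 865, 909.7 and 674 after mock treatment (log2 difference -1.31, SE 0.17, adjusted p = 8.9e-05), and neither genotype showed overlap of salt with mock. For *psaB*, signals were 8635, 7886 and 8744 in salt-treated overexpressor seedlings, against 21526, 16327 and 15181 in mock-treated overexpressor seedlings (log2 difference -1.05, SE 0.20, adjusted p = 0.0011). In the wild-type they were 9655, 16681 and 12976 after salt, against 17773, 20947 and 18226 after mock treatment, a smaller estimate with replicate 2 after salt close to the mock arrays (log2 difference -0.57, SE 0.20, adjusted p = 0.042).

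The small subunit gene *psaJ* showed the largest fall of all 43 genes in each genotype. Its signals were 642, 924 and 992 in salt-treated overexpressor seedlings, against 3284, 2662 and 3530.4 in mock-treated overexpressor seedlings, a 3.74-fold reduction (log2 difference -1.90, SE 0.30, adjusted p = 2.5e-04). Wild-type seedlings had 790.4, 1863 and 792 after salt, against 5103, 3989 and 3352 after mock treatment, a 3.88-fold reduction (log2 difference -1.96, SE 0.30, adjusted p = 2.5e-04). The other small subunit gene *psaI* fell, with log2 differences of -1.60 (SE 0.26, adjusted p = 3.6e-04) in the overexpressor and -1.10 (SE 0.26, adjusted p = 0.0049) in the wild-type. The exception was *psaC*, which encodes the subunit that carries the terminal iron-sulfur clusters. Its signals were 93.6, 117 and 135 in salt-treated overexpressor seedlings, against 73.7, 68.9 and 208 in mock-treated overexpressor seedlings, with overlap and no difference that passed the test (log2 difference 0.16, SE 0.44, adjusted p = 0.81). In the wild-type they were 119.9, 132 and 66.8 after salt, against 163, 385 and 323 after mock treatment, with no overlap (log2 difference -1.42, SE 0.44, adjusted p = 0.02). It was above the array median on only 3 of 12 arrays, and its wild-type call was lost when single arrays were left out.

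**Figure D3:**
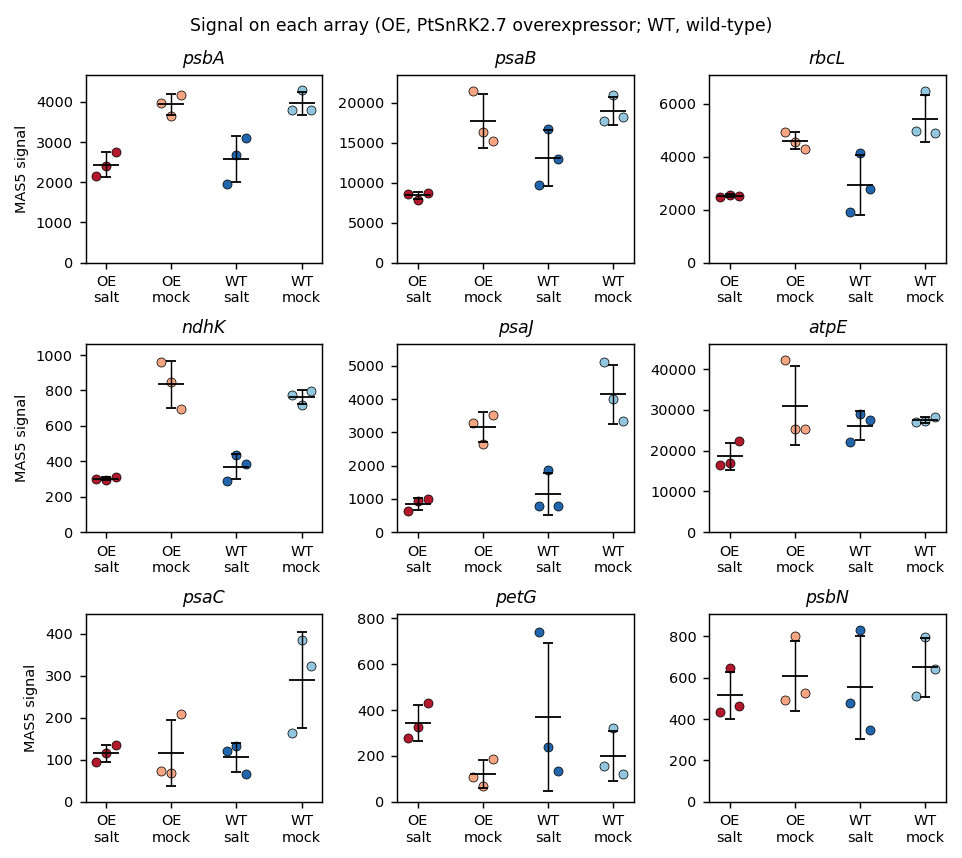
Each panel gives the MAS5 signal of 1 gene (linear axis from 0, no unit) on every array in the salt-treated and mock-treated overexpressor (OE) and the salt-treated and mock-treated wild-type (WT), with points for arrays, a bar for the mean and whiskers for ± 1 SD (n = 3). Salt arrays lie below mock arrays of the same genotype for *psbA*, *psaB*, *rbcL*, *ndhK* and *psaJ*, and the groups overlap for *psbN*.

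The chloroplast ATP synthase joins a catalytic head, with the subunits alpha (*atpA*), beta (*atpB*) and epsilon (*atpE*), to a membrane part with the subunits b (*atpF*), c (*atpH*) and a (*atpI*). All 6 genes were lower in the overexpressor and 3 in the wild-type, with medians of -1.06 and -0.76. The 3 that were lower in both genotypes were those of the membrane part. For *atpH*, signals were 666, 710.1 and 647 in salt-treated overexpressor seedlings, against 1219, 1619 and 1396 in mock-treated overexpressor seedlings (log2 difference -1.06, SE 0.16, adjusted p = 2.2e-04). The wild-type signals of *atpH* were 585, 848 and 611 after salt, against 1492, 2041 and 1846 after mock treatment, which gave the smallest adjusted p of the wild-type (log2 difference -1.40, SE 0.16, adjusted p = 3.7e-05). For *atpI*, signals were 145, 203 and 95.4 in salt-treated overexpressor seedlings, against 497, 422 and 558 in mock-treated overexpressor seedlings (log2 difference -1.79, SE 0.36, adjusted p = 0.0014), and in the wild-type 122, 313 and 145 after salt, against 697, 370.3 and 576 after mock treatment (log2 difference -1.58, SE 0.36, adjusted p = 0.0035). The *atpF* differences were -1.17 in the overexpressor and -0.95 in the wild-type.

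The genes of the head passed the test only in the overexpressor, which is not a test of the difference between the genotypes. For *atpE*, signals were 16368, 17072 and 22435 in salt-treated overexpressor seedlings, against 42172, 25375 and 25345 in mock-treated overexpressor seedlings (log2 difference -0.70, SE 0.23, adjusted p = 0.025). In the wild-type they were 22029, 28984 and 27395 after salt, against 27052, 27143 and 28278 after mock treatment, with overlap of the groups (log2 difference -0.08, SE 0.23, adjusted p = 0.81). For *atpA*, signals were 875, 849 and 839 in salt-treated overexpressor seedlings, against 2038, 1649 and 1380.1 in mock-treated overexpressor seedlings (log2 difference -0.97, SE 0.23, adjusted p = 0.0041). Wild-type seedlings gave 898, 1297 and 974 after salt, against 939, 1791 and 1002 after mock treatment, with 1 mock array far above the others (log2 difference -0.19, SE 0.23, adjusted p = 0.55). The *atpB* differences were -1.06 (SE 0.22, adjusted p = 0.0021) in the overexpressor and -0.57 (SE 0.22, adjusted p = 0.064) in the wild-type.

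The NDH complex had 9 of 10 genes lower in the overexpressor and 7 of 10 in the wild-type, with medians of -1.21 and -0.98. The smallest adjusted p in the overexpressor was that of *ndhK*. Its signals were 301, 295 and 311 in salt-treated overexpressor seedlings, against 962, 846 and 695 in mock-treated overexpressor seedlings, with 3 salt arrays that almost coincided (log2 difference -1.45, SE 0.15, adjusted p = 1.5e-05). Wild-type signals were 291, 433 and 384 after salt, against 776, 717 and 796 after mock treatment (log2 difference -1.06, SE 0.15, adjusted p = 1.8e-04). For *ndhJ*, signals were 569, 664 and 575 in salt-treated overexpressor seedlings, against 2439, 1924 and 1955 in mock-treated overexpressor seedlings (log2 difference -1.80, SE 0.27, adjusted p = 2.1e-04), and in the wild-type 426, 1214 and 750.1 after salt, against 2046, 1944 and 1760.0 after mock treatment (log2 difference -1.39, SE 0.27, adjusted p = 0.0014). For *ndhD*, signals were 379.7, 511 and 463 in salt-treated overexpressor seedlings, against 1250.3, 993 and 1140.3 in mock-treated overexpressor seedlings (log2 difference -1.33, SE 0.16, adjusted p = 4.6e-05), and in the wild-type 601, 628 and 442 after salt, against 1003, 1122 and 862 after mock treatment (log2 difference -0.85, SE 0.16, adjusted p = 0.0013). None of these 3 genes showed overlap of salt with mock in either genotype.

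Low signals were seen for *ndhH*, at 45.0, 70.4 and 51.1 in salt-treated overexpressor seedlings, against 143, 173 and 212 in mock-treated overexpressor seedlings, yet its fall was among the 4 largest in the overexpressor (log2 difference -1.67, SE 0.41, adjusted p = 0.0053) and the largest after that of *psaJ* in the wild-type (log2 difference -1.79, SE 0.41, adjusted p = 0.0038), where its signals were 63.7, 105 and 25.1 after salt, against 179, 209 and 188 after mock treatment. The gene *ndhG* had 166, 170.2 and 197 in salt-treated overexpressor seedlings, against 210.0, 294 and 313 in mock-treated overexpressor seedlings (log2 difference -0.60, SE 0.18, adjusted p = 0.018). Its wild-type signals were 111, 109 and 128 after salt, against 332, 282 and 245 after mock treatment, with 3 salt arrays close together (log2 difference -1.29, SE 0.18, adjusted p = 1.5e-04). Differences in the overexpressor and the wild-type were -1.62 and -1.16 for *ndhA* and -0.99 and -0.89 for *ndhE*, both called lower in each genotype. They were -0.69 and -0.42 for *ndhC* and -1.10 and -0.75 for *ndhI*, called only in the overexpressor (adjusted p = 0.21 and 0.06 in the wild-type). The exception in this complex was *ndhF*, with 48.1, 96.6 and 99.7 in salt-treated and 36.1, 81.9 and 72.5 in mock-treated overexpressor seedlings (log2 difference 0.37, SE 0.51, adjusted p = 0.61). In the wild-type its difference was -0.21 (SE 0.51, adjusted p = 0.78), and none of its 12 signals reached the array median.

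The gene *rbcL* encodes the large subunit of Rubisco, the carbon-fixing enzyme. Its signals were 2480.4, 2570.3 and 2529.9 in salt-treated overexpressor seedlings, against 4930.4, 4569 and 4305 in mock-treated overexpressor seedlings (log2 difference -0.86, SE 0.22, adjusted p = 0.0069). The wild-type gave 1894, 4149 and 2764 after salt, against 4961, 6466 and 4877 after mock treatment, where the salt arrays spread more widely than those of the other groups (log2 difference -0.95, SE 0.22, adjusted p = 0.0042). No *rbcL* salt array reached the lowest mock array of its genotype, and the reduction was 1.82-fold in the overexpressor and 1.93-fold in the wild-type.

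Of the 34 genes lower in the overexpressor, 26 (76.5%) were also lower in the wild-type, and these were 96.3% of the 27 genes lower there. The same overlap was not counted over all probe sets, so it is not shown to be a trait of these genes. Both salt responses were also tested with a common variance for each probe set, so the calls are not fully independent. Those lower in the overexpressor only were *psbK*, *psbM*, *psbZ*, *atpA*, *atpB*, *atpE*, *ndhC* and *ndhI*, and *psaC* was lower in the wild-type only. Neither genotype passed the test for lower signals in *psbD*, *psbN*, *psbT*, *petD*, *petG*, *petL*, *petN* and *ndhF*. Among the 34 genes that stayed above the array median on all 12 arrays, 31 were lower in the overexpressor and 23 in the wild-type. Of the 9 genes that did not, 3 were lower in the overexpressor and 4 in the wild-type. Of all probe sets, 24% were lower in the overexpressor and 21.9% in the wild-type. The split used the salt arrays as well, so a fall after salt can itself place a gene among the 9. This was so for *atpI*, which lay above the array median on every mock array.

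Most plastid photosynthesis genes belong to transcription units, in which neighbouring genes are transcribed together and the RNA is then processed. RefSeq gene order for the TAIR10.1 assembly was used to place the 43 genes along the plastid genome. In the unit of *psbE*, *psbF*, *psbL* and *psbJ*, all 4 genes were lower in both genotypes, with log2 differences of -1.03 to -0.64 in the overexpressor and -0.81 to -0.53 in the wild-type. The unit of *atpI*, *atpH*, *atpF* and *atpA* had 4 genes lower in the overexpressor, from -1.79 to -0.97, and 3 lower in the wild-type, from -1.58 to -0.95, with *atpA* not called there (-0.19). The unit of *ndhC*, *ndhK* and *ndhJ* ranged from -1.80 to -0.69 in the overexpressor and from -1.39 to -0.42 in the wild-type, with *ndhJ* at the low end each time. The *ndhH* unit of 7 genes had 6 lower in each genotype, with *psaC* outside the calls in the overexpressor and *ndhI* in the wild-type.

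Members of 1 unit could also differ widely. In the *psbB* unit, *psbB*, *psbH* and *petB* fell, with log2 differences of -0.98, -1.19 and -1.13 in the overexpressor and of -0.84, -0.90 and -0.63 in the wild-type, whereas *psbT* and *petD* were not called. In this region *psbN* lies between *psbT* and *psbH* on the opposite strand and was not called either. In the unit of *petL*, *petG* and *psaJ*, the overexpressor differences were -0.65, 1.61 and -1.90, which span both the only rise and the largest fall among the 43 genes. The wild-type differences were -0.22, 0.66 and -1.96. The coding regions of *psbD* and *psbC* overlap, as do those of *atpB* and *atpE*, so their probe sets can share transcripts. Differences within a unit were not tested.

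**Figure D4:**
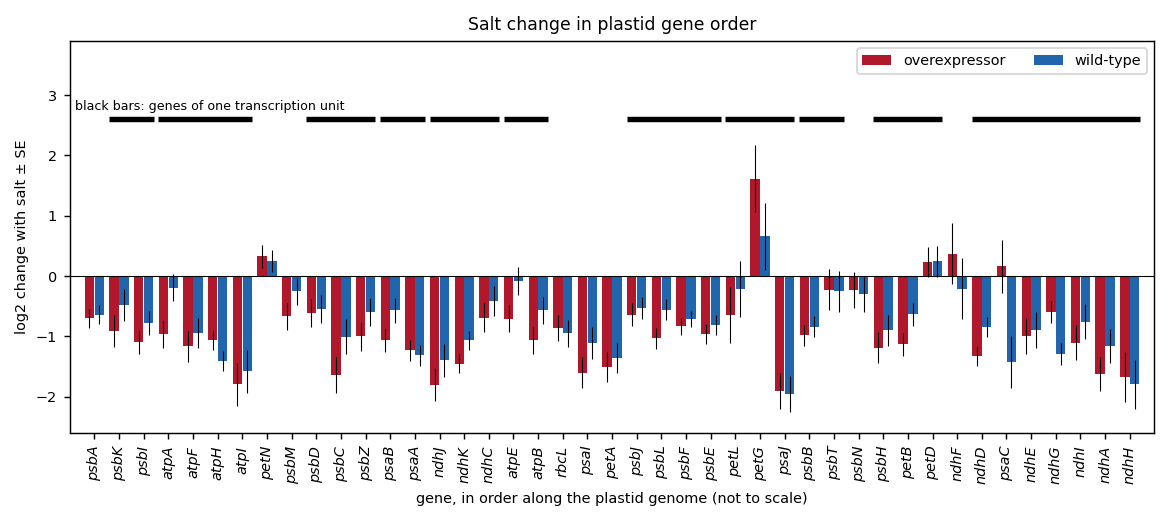
Bars show the log2 change with salt ± SE for the 43 genes in the order of the plastid genome (not to scale), red for the overexpressor and blue for the wild-type, and black lines above join genes of a transcription unit. Bars point down along the whole genome except at *petN*, *petG* and *petD* in both genotypes and at *ndhF* and *psaC* in the overexpressor.

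Salt also lowered plastid genes outside photosynthesis. Of 26 other plastid-encoded genes measured, 22 (84.6%) were lower in each genotype and 0 were higher, with medians of -1.53 in the overexpressor and -1.41 in the wild-type. Of all probe sets, 24% were lower and 17.1% higher in the overexpressor, and 21.9% lower and 17.2% higher in the wild-type. Ribosomal protein genes accounted for 13 of 15 in each genotype, with medians of -1.84 and -1.50. The *rpl36* gene of the large ribosomal subunit fell, with log2 differences of -2.52 in the overexpressor and -2.32 in the wild-type, and *rps14* (0.28 in the overexpressor) and *rpl32* (-0.43) were not called. For the plastid-encoded RNA polymerase, 3 of 4 *rpo* genes were lower in each genotype, with medians of -1.80 and -1.38. Of 7 genes of other function, 6 were lower in each genotype (medians -1.20 and -0.99), among them *ycf3*, whose product assists photosystem I assembly (-2.09 and -1.34). Each of these medians was lower than that of the 43 photosynthesis genes, -0.99 in the overexpressor and -0.75 in the wild-type, and the difference between the lists was not tested.

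Nuclear genes listed for the same complexes, not all of them for subunits, moved in the same direction where they could be followed. Of 54 listed genes, 12 had a probe set paired with them alone. All 12 were lower in the overexpressor, where 24% of all probe sets were lower, with a median of -1.12. In the wild-type 11 were lower, where 21.9% of all probe sets were lower, with a median of -0.95. Both measured genes of the NDH complex were among them. The log2 differences in the overexpressor and the wild-type were -2.46 and -2.25 for *NdhN* and -2.43 and -2.54 for *NdhL*. *RCA*, which encodes the activase of Rubisco and not a subunit, fell in both (-1.12 and -0.86). No listed nuclear gene for a Rubisco subunit was measured. *PSBW*, for a small subunit of photosystem II, fell in the overexpressor (-0.69) and was the gene that was not called in the wild-type (-0.45, adjusted p = 0.14). Leaving out single arrays gave 8 to 12 of the 12 genes lower in each genotype. In the overexpressor the count was 8 without overexpressor mock replicate 1, where 20.5% of all probe sets were lower. In the wild-type it was 8 without any one of wild-type salt replicates 1 and 3 and the 3 wild-type mock arrays. There 18.2% to 18.7% of all probe sets were lower. It was 12 without wild-type salt replicate 2, where 25.2% of all probe sets were lower. Of 17 listed genes for nuclear-encoded plastid RNA polymerases, sigma factors and associated factors, only *PAC*, which is required for chloroplast development, was measured, with differences of -1.14 and -1.07.

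Mitochondrion-encoded genes, which like plastid genes belong to an organelle genome, had low signals, and 8 of the 11 measured lay under the array median on all 12 arrays. In the overexpressor 2 of 11 (18.2%) were lower, where 24% of all probe sets were lower. There 1 was higher, where 17.1% of all probe sets were higher (median of the 11 genes 0.05). In the wild-type 1 of 11 (9.09%) was lower, where 21.9% of all probe sets were lower (median 0.03). Leaving out single arrays gave 0 to 2 lower and 0 to 1 higher in the overexpressor, where 20.5% to 26.1% of all probe sets were lower. In the overexpressor *nad4* and *nad1*, for subunits of complex I, differed by -0.44 and -0.92 and *cox2*, for a subunit of cytochrome c oxidase, by 1.33. In the wild-type only *nad4* was called (-0.63). The signals of *nad2* and *matR* stayed under the 20th percentile of every array, and *nad7* was above it on 2 of 12 arrays, so a fall of these genes could hardly be seen. Only *nad4* and *cox1* stayed above the array median on all 12 arrays, and *cox1* was not called (0.16 and 0.11, adjusted p = 0.59 and 0.73).

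**Figure D5:**
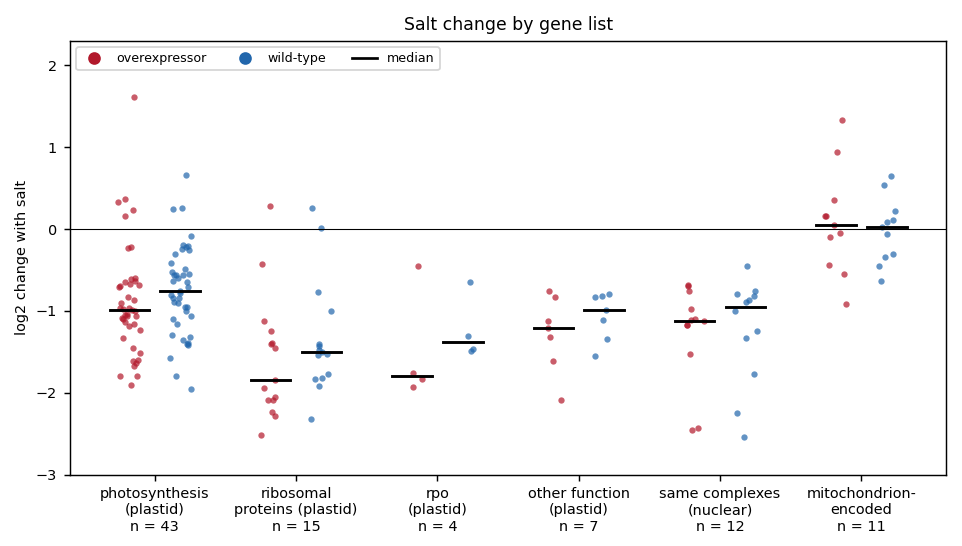
Points show the log2 change with salt of each measured gene in 6 gene lists, red for the overexpressor and blue for the wild-type, and black lines mark medians. Medians lie below 0 for the 4 plastid-encoded lists and for the nuclear genes of the same complexes, and near 0 for the 11 mitochondrion-encoded genes.

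The genotypes were then compared within each treatment. After mock treatment, 0 of the 43 genes were lower (background 0.431%) and 0 were higher (background 0.132%) in the overexpressor by limma, with a median log2 difference of -0.01 and 23 negative and 20 positive values. At an unadjusted p under 0.05, limma gave 1 of the 43 genes, lower in the overexpressor, against 2115 of all 22746 probe sets. The methods' t-test gave 1 gene, which was higher in the overexpressor and so not the same gene. The gene given by limma was *psaC*, with 73.7, 68.9 and 208 in the overexpressor and 163, 385 and 323 in the wild-type, where 1 overexpressor array lay within the wild-type range (log2 difference -1.42, SE 0.44, adjusted p = 0.25). All overexpressor arrays lay above all wild-type arrays for 2 genes, *psbF* and *petD* (10.5% of all probe sets), and below them for 0 genes (9.72% of all probe sets). For 37 genes, the 95% interval of the genotype difference lay within 2-fold in either direction.

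After salt, 0 genes were lower (background 0.783%) and 0 were higher (background 1.23%) in the overexpressor by limma, with a median of -0.25 over the 43 genes and -0.03 over all probe sets. The estimate was negative for 34 genes and positive for 9. At an unadjusted p under 0.05, limma gave 4 of the 43 genes, 3 lower and 1 higher in the overexpressor, against 3995 of all 22746 probe sets. The methods' t-test gave 1 gene, which was higher in the overexpressor. Of the 4, *psaB* had 8635, 7886 and 8744 in the overexpressor and 9655, 16681 and 12976 in the wild-type, without overlap (log2 difference -0.60, SE 0.20, adjusted p = 0.14). The gene *ndhG* went the other way, with 166, 170.2 and 197 in the overexpressor and 111, 109 and 128 in the wild-type, also without overlap (log2 difference 0.61, SE 0.18, adjusted p = 0.1). The others were *psbI* (-0.46, adjusted p = 0.25) and *atpE* (-0.49, adjusted p = 0.28). All overexpressor arrays lay below all wild-type arrays for 2 genes, *psaB* and *atpA* (10% of all probe sets), and above them for *ndhG* (9.32% of all probe sets). Intervals within 2-fold in either direction were found for 34 genes. The median depended on wild-type salt replicate 2 and was -0.02 without it. Without wild-type salt replicate 1, *psaB* (-0.81, adjusted p = 0.030) and *psaI* (-0.84, adjusted p = 0.038) were lower in the overexpressor.

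The interaction asks directly whether the salt response differed between the overexpressor and the wild-type. By limma, 0 of the 43 genes were lower (background 0.0528%) and 0 were higher (background 0.246%), with the smallest adjusted p at 0.29. An unadjusted p under 0.05 was found for 3 of the 43 genes, against 2742 of all 22746 probe sets. For *ndhG* the log2 difference of the responses was 0.69 (SE 0.26, adjusted p = 0.29), a smaller fall in the overexpressor. For *psaC* it was 1.58 (SE 0.62, adjusted p = 0.32). For *atpA* it was -0.77 (SE 0.32, adjusted p = 0.35), a larger estimated fall in the overexpressor. The median over the 43 genes was -0.21, with 31 negative and 12 positive estimates, and -0.04 without wild-type salt replicate 2. Only 18 genes had a 95% interval within 2-fold in either direction. For the other genes, a difference of the responses above 2-fold was not excluded with 3 arrays a group, and smaller ones were mostly not resolved. The larger number of genes called in the overexpressor, 34 against 27, is therefore not shown to be a difference between the genotypes.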

How the data were processed

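Total RNA of 12 whole-seedling samples was hybridized to ATH1 GeneChips after labelling by the standard Affymetrix protocol. The intensity values deposited by the authors are linear MAS5 signals, with 1 value for a probe set on each array, scaled to a common target. The scaling makes each value relative to the whole array, and the version of MAS5 and its settings are not given in the sources used here. No counts or depth exist for arrays. Detection calls were not used.

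Of 22810 probe sets, 64 controls were left out. The log2 signals of the other 22746 over all 12 arrays entered a limma fit (version 3.58.1, R 4.3.3) with 4 group means and an intensity trend in the moderated variances. Contrasts were salt against mock in each genotype, the genotypes within each treatment, and the interaction. Tests were two-sided, with Benjamini-Hochberg adjustment over all probe sets. limma took the place of the study's Welch test, here called the methods' t-test, because it shares information on the spread across probe sets, and the methods' t-test was run as an alternative. The steps were tested on simulated data with known changes.

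Probe sets were named through the platform annotation, which paired 13513 with 1 gene. RefSeq (TAIR10.1) served for names and gene order only, since no genome build is named for the arrays. The genes, the lists and the markers were chosen with earlier results of these data known. Signals by array are given for *psbA*, *psaA*, *psaB* and *rbcL*, for the genes with the smallest adjusted p and the largest change in each comparison (up to 4 of each per direction), and for genes that differ within a transcription unit, plus a few chosen after their values were seen (*petA*, *psbN*, *ndhF*, *petL*). Of the comparison lists, up to 4 genes with the smallest adjusted p per direction could be named, and *PSBW*, *RCA*, *rps14* and *rpl32* were named after their values were seen. Alternatives were median centring, quantile normalization, a filter on the 40th percentile, signals raised to the 20th percentile, other variance models, array quality weights, a replicate block, the methods' t-test, the 2 groups alone, the study's limits, and leaving out each array. Leaving out single arrays for the comparison lists was added after seeing the data. Survival, chlorophyll and root growth were not analysed here.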

Additional observations from a re-analysis of the deposited data

How the results depend on the processing

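The direction of the median over the 43 genes held under each alternative for the salt response of both genotypes. In the overexpressor, 30 to 35 genes were lower under every other scaling, floor, filter and variance model, against 34 as reported, and in the wild-type 23 to 32, against 27. The methods' t-test gave 20 genes lower in the overexpressor and 0 in the wild-type. At an unadjusted p under 0.05 it gave 31 and 13. With the adjustment, it called 6099 of all probe sets in the overexpressor and 4 in the wild-type, counting both directions. The paper's own wild-type counts were thus not reproduced by it. With limma at the study's limits for salt, 7 genes were lower in the overexpressor and 2 in the wild-type. The number of genes higher in the overexpressor, *petG* alone, was 0 without the intensity trend, with the replicate block, with the methods' t-test and at the study's limits. After salt, array quality weights gave 1 gene lower in the overexpressor than in the wild-type, *psaB*. The cause of these shifts was not tested, except that the study's limits are stricter by construction.

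Leaving out single arrays gave 28 to 35 genes lower and 0 to 1 higher in the overexpressor and 19 to 32 lower in the wild-type, with medians of -1.06 to -0.90 and -0.85 to -0.67. The lowest wild-type count came without wild-type salt replicate 3, where 18.7% of all probe sets were lower. Over the omissions, the share of all probe sets lower ran from 20.5% to 26.1% in the overexpressor and from 18.2% to 25.2% in the wild-type. Every omission kept 27 of the 34 calls in the overexpressor (not *psbJ*, *psbK*, *psbM*, *atpE*, *ndhC*, *ndhE* and *ndhG*) and 19 of the 27 in the wild-type (not *psbC*, *psbH*, *psbJ*, *psbL*, *petB*, *psaB*, *psaC* and *ndhE*). Between the genotypes, the number of genes lower after salt was 0 to 2, where 0.0352% to 3.48% of all probe sets were lower. The median was -0.05 to 0.09 after mock treatment and -0.38 to -0.02 after salt. The interaction median was -0.34 to -0.04, with 0 calls.

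Estimates that changed sign belonged to genes that had not been called. In the overexpressor, *psaC* became -0.044 with array quality weights. Leaving out single arrays moved *psaC* from -0.12 (without mock replicate 2) to 0.68 and *psbT* from -0.41 to 0.039 (without mock replicate 3) there. In the wild-type, it moved *psbT* from -0.65 to 0.023, *petD* from -0.030 to 0.46, *petG* from -0.030 to 1.21, *petL* from -0.48 to 0.19, *atpA* from -0.36 to 0.10, *atpE* from -0.16 to 0.036 and *ndhF* from -0.75 to 0.18. No pairing of the arrays by replicate number was visible. The 18 correlations between same-numbered arrays of different groups (deviations from the group means) ran from -0.07 to 0.09. They cannot show whether same-numbered samples were handled together. The replicate block gave 33 genes lower in the overexpressor and 25 in the wild-type. Low signal limits *petD* and *ndhF*, which lay under the array median on all 12 arrays, and *ndhH*, which was above the 20th percentile on 11 of 12.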
